A study of Mus musculus with 3 samples.

Results

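Hydroxymethylated DNA immunoprecipitation with sequencing (hMeDIP-seq) was examined here for the regions that were enriched, and that hold CpG dinucleotides in the reference, but for which no modified base-call was listed at any CpG. Peaks of the 3 hMeDIP replicates on chromosomes 1 to 19 were merged where they overlapped by at least 1 bp, which gave 13285 regions. Of these, 12079 held at least 3 CpG in GRCm39 and are called CpG-bearing. In 459 of the CpG-bearing regions (3.80%, 95% exact binomial interval 3.47 to 4.16), not a single CpG was listed in the base-call files of any replicate. These 459 regions held 2760 CpG in all. In the other 11620 CpG-bearing regions, 84.4% of 113438 CpG had a base-call in at least 1 replicate. The 459 regions were selected on their lack of any listed base-call, together with their peaks and CpG number, so that lack is not a finding about them. Intervals cover counting error only.

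All 3 libraries came from the cerebellum of 1 female C57Bl6Cr mouse aged 8 weeks. Each reaction took 1 µg of DNA, sonicated to fragments of 362 bp on average. Replicate 1 was precipitated with whole serum antibody against 5hmC, and replicates 2 and 3 with the IgG-purified form. The spread between replicates is therefore that of the reaction, the antibody form and the sequencing run, and not that between mice.

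5-Hydroxymethylcytosine (5hmC) is made from 5-methylcytosine (5mC) by the TET enzymes, mostly at CpG dinucleotides, and is abundant in the DNA of neurons, largely within gene bodies. In hMeDIP, an antibody retains fragments that carry 5hmC, and a peak marks where retained fragments pile up over the untreated DNA. Nanopore base-calling gives, in addition, the state of each CpG on the reads themselves (5hmC, 5mC or unmodified), so that a peak and the calls within it are separate readouts of the same fragments. Repeats that are masked in the reference can be left out of such calls, since modified base detection can be less accurate in them.

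The reference sequence shows how different these regions were from one another. The 5 stretches below are printed 5′ to 3′ on the + strand of GRCm39, in lower case with every CpG in capitals. The region with the most CpG lay in an intron of Pdzrn4 (chr15:92337694-92337993), which encodes a PDZ and RING finger protein, and is shown for its CpG-dense triplet repeats.
Pdzrn4 intron: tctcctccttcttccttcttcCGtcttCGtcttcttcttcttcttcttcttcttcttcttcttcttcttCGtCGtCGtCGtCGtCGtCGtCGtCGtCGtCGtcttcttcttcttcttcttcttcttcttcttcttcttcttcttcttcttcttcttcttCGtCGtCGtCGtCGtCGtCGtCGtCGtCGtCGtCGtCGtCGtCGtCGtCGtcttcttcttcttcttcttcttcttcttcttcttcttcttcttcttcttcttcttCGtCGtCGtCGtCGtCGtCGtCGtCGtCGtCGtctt
The single-replicate region with the highest fold enrichment lay in an intron of the lncRNA gene D030025P21Rik (chr12:84930791-84931090), and is shown for its runs of CCT and CAT triplets.
D030025P21Rik intron: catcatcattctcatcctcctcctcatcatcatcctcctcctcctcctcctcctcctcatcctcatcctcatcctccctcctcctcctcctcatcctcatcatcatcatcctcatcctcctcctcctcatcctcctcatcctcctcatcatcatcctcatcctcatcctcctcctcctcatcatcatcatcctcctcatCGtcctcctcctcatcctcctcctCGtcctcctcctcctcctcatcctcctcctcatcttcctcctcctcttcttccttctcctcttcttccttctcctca
The region next to it in fold enrichment lay in an intron of Spef2 (chr15:9737926-9738225), a gene of sperm flagellum assembly, and consists almost wholly of short runs of C and TG.
Spef2 intron: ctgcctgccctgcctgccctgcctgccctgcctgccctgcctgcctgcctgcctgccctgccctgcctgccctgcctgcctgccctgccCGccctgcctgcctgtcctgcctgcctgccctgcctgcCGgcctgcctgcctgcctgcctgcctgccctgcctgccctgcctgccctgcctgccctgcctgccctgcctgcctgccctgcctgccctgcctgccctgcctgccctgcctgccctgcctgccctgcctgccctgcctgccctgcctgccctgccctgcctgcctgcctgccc
The region whose words were the most repeated elsewhere in the genome lay in an intron of the gene model ENSMUSG00000138531 (chr15:74233063-74233362).
Most repeated words: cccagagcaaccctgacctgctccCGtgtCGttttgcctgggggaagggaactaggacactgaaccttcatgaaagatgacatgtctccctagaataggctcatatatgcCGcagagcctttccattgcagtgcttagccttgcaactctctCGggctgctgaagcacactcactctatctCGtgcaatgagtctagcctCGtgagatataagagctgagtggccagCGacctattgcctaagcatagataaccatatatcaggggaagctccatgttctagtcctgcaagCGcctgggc
An intergenic region (chr11:114228564-114228863) is shown because it had peaks in 2 replicates and few repeats.
Intergenic, chromosome 11: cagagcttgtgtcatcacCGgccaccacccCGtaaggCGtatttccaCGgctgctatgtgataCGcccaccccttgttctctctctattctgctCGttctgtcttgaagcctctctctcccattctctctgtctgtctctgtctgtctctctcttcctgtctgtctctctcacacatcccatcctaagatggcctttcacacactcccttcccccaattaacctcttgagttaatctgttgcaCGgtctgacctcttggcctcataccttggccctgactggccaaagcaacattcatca
The Pdzrn4 sequence alternates runs of TTC with runs of TCG, whereas the chromosome 11 sequence holds its CpG mostly in sequence found once in the genome.

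The peak lists differed in size, which does not rank the libraries by their mapped reads. Replicate 1 had 490 peaks on chromosomes 1 to 19, replicate 2 had 8506 and replicate 3 had 5146. The base-call files held 29039 CpG for replicate 1, 64388 for replicate 2 and 47104 for replicate 3, with 69910, 104238 and 75624 calls, and a median of 1 call per CpG in each. Every listed CpG lay on the forward strand. Whether reverse-strand calls were dropped or joined to these is not given in the sources used here, so a region without a base-call is one with no listed forward-strand entry, and its reads may still hold calls that were not listed. Regions without a base-call had a peak from replicate 1 in 4 cases, from replicate 2 in 303 and from replicate 3 in 154, which was 0.868%, 3.91% and 3.27% of the CpG-bearing peaks of each.

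Regions without a base-call rested on few reads. MACS2 adds 1 to the reads at a summit and 1 to the local background and reports their quotient as fold enrichment, so the most common values of a list stand for whole reads. From these steps, 206 of the 459 regions had about 2 reads at the summit, 225 had 3, 23 had 4 and 5 had at least 5. At most 3 reads were estimated for 93.9% of them and for 77.8% of the other CpG-bearing regions. The share of regions without a base-call was next taken over CpG-bearing regions with a peak in 1 replicate only. In replicate 2 it was 6.88% at 2 reads (141 of 2049), 4.00% at 3 reads (146 of 3651), 1.18% at 4 reads (12 of 1020) and 0 of 242 regions at 5 reads, where the 95% exact interval reached 1.51%. In replicate 3 the shares were 5.87% (65 of 1107), 3.39% (76 of 2243), 1.83% (10 of 545) and 0 of 98, with an interval up to 3.69%. Both replicates fell in the same order from 2 to 5 reads. At 6 or more reads the share was 5.41% in replicate 2 (2 of 37, interval 0.661 to 18.2) and 5.56% in replicate 3 (1 of 18, interval 0.141 to 27.3), and all 3 of these regions are among the tandem repeat regions described later (Spef2, Pdzrn4 and D030025P21Rik). In replicate 1 the counts were too small to order, with 2 of 85 regions at 3 reads, 1 of 104 at 4 reads and 1 of 89 at 5 reads.

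**Figure D1:**
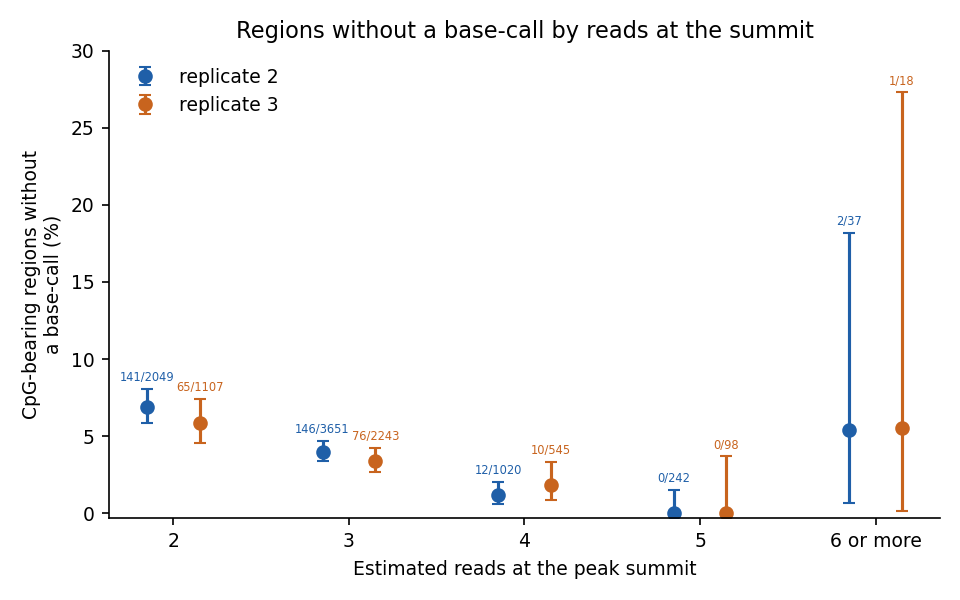
Percent of CpG-bearing regions without a base-call (y axis) against the estimated reads at the peak summit (x axis), for regions with a peak in replicate 2 only or replicate 3 only. Points are shares, bars are 95% exact binomial intervals, and the counts above them give regions without a base-call over all regions; the share fell from 6.88% to 0 of 242 in replicate 2 and from 5.87% to 0 of 98 in replicate 3, and the last class holds few regions and wide intervals.

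They were also poor in CpG. The median region without a base-call had 5 CpG (range 3 to 41), against 7 in the other CpG-bearing regions. The median was 5 against 9 in replicate 1, 5 against 8 in replicate 2 and 5 against 7 in replicate 3. Fewer CpG leave fewer chances of a listed base-call, so the selection itself favours this direction and no test of it is used. Just 3 CpG were held by 103 of the 459 regions, 3 or 4 by 200 (43.6%, against 18.9% of the others), 10 or more by 54, and 20 or more by 3. The share without a base-call was 9.55% among regions with 3 CpG, 7.37% with 4, 4.01% with 5 to 6, 3.36% with 7 to 9, 1.61% with 10 to 19 and 0.330% with 20 or more. Read depth and CpG number moved with this share side by side. At 2 reads it went from 12.7% with 3 CpG to 3.12% with 10 to 19 CpG, and at 3 reads from 8.31% to 1.68%. The part of either in the missing base-calls was not tested.

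**Figure D2:**
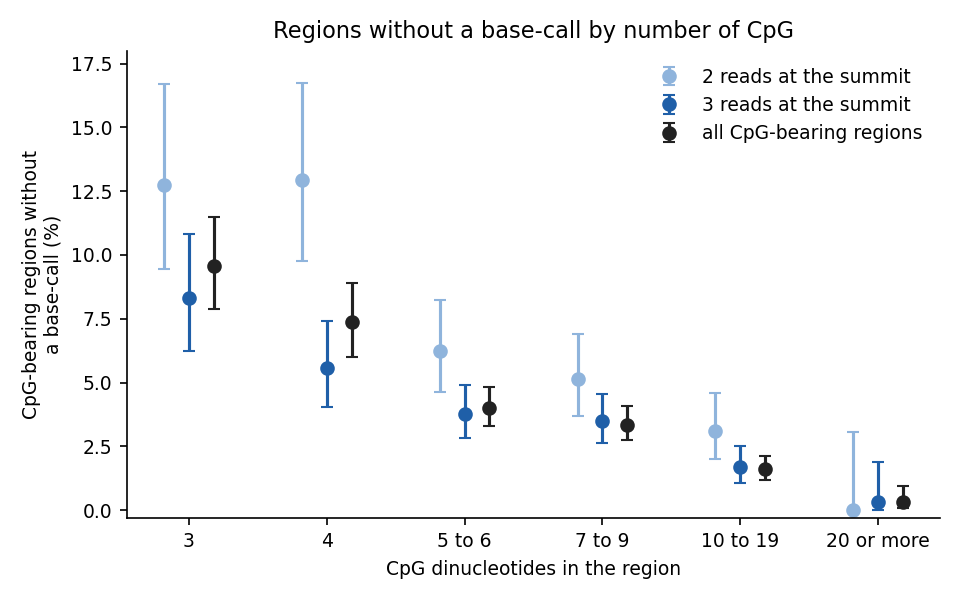
Percent of CpG-bearing regions without a base-call (y axis) against the number of CpG in the region (x axis), for all regions and for those with about 2 or 3 reads at the summit. Points are shares and bars 95% exact binomial intervals; the share was 9.55% over all regions with 3 CpG and 0.330% with 20 or more, and the 2-read regions lay above the 3-read regions in each class but the last, where they held 0 of 118.

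Fold enrichment was slightly lower where no base-call was listed. In replicate 1 its median was 4.24 without base-calls (n = 4) against 4.72 with them, in replicate 2 it was 3.70 (n = 303) against 3.83, and in replicate 3 it was 3.85 (n = 154) against 3.87. The mean difference was -0.211 over the 3 replicates, with the same direction in each and -0.022 in replicate 3. Fold enrichment follows the reads at the summit, and fewer reads leave fewer chances of a listed base-call, so the selection favours this direction too and the difference is a description. It was -0.381 with means over peaks in place of medians and -0.065 without replicate 3. In that last case the 2 remaining replicates did not share a direction. By means, replicate 3 had 3.58 against 3.82. Over the 459 regions the highest fold enrichment ranged from 2.77 to 11.01 with a median of 3.70. GC content had a median of 47.4% against 49.6%, and was lower in replicates 2 and 3 but higher in replicate 1 (p = 0.5, two-sided exact sign-flip permutation test over 3 replicates, where the smallest p is 0.25). Its median was 43.7% in regions with fewer than 3 CpG. GC content thus moved with the number of CpG, and its difference is a description as well. Most of the regions were as short as the peak lists hold, since 372 of 459 were under 310 bp and the most common length was 304 bp. The other CpG-bearing regions also had a median length of 304 bp, but their upper quartile was 530 bp against 304 bp.

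Rows of base-calls were next read against repeated sequence, since the methods state that masked repeats were left out of the base-call files. The copy of GRCm39 used here carries no repeat masking, so masked bases could not be read, and the number of copies of each sequence in the genome was counted instead. For each CpG, the 31-base word centred on it was counted on both strands of all chromosomes. Of the 2760 CpG in regions without a base-call, 95.5% lay in words that occurred once, against 94.2% of CpG in the other CpG-bearing regions. Over all regions, a base-call was present for 82.1% of CpG in words with 1 copy, 85.7% with 2 to 9 copies, 88.2% with at least 10 but under 100, 80.1% with at least 100 but under 1000, and 85.4% with 1000 or more. These shares had no steady order by copy number and lay between 80.1% and 88.2%. Within each replicate's own peaks, a base-call was present for 84.9% of CpG with 10 or more copies against 74.6% with 1 copy in replicate 1, for 73.2% against 68.3% in replicate 2 and for 73.0% against 69.9% in replicate 3 (mean difference 6.08 percentage points, exact sign-flip permutation test, p = 0.25). When restricted to single-replicate regions of at most 3 reads the direction was not the same throughout, at 96.7% against 75.6% in replicate 1 (30 repeated CpG), 66.0% against 67.4% in replicate 2 and 75.6% against 72.8% in replicate 3. Base-calls also chose the regions, so these differences are a description, and the part of repeats in the missing base-calls was not tested. Copy number is not repeat masking. Old, diverged repeats can be masked and still hold words that occur once, and the share of masked bases in these regions was not tested.

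**Figure D3:**
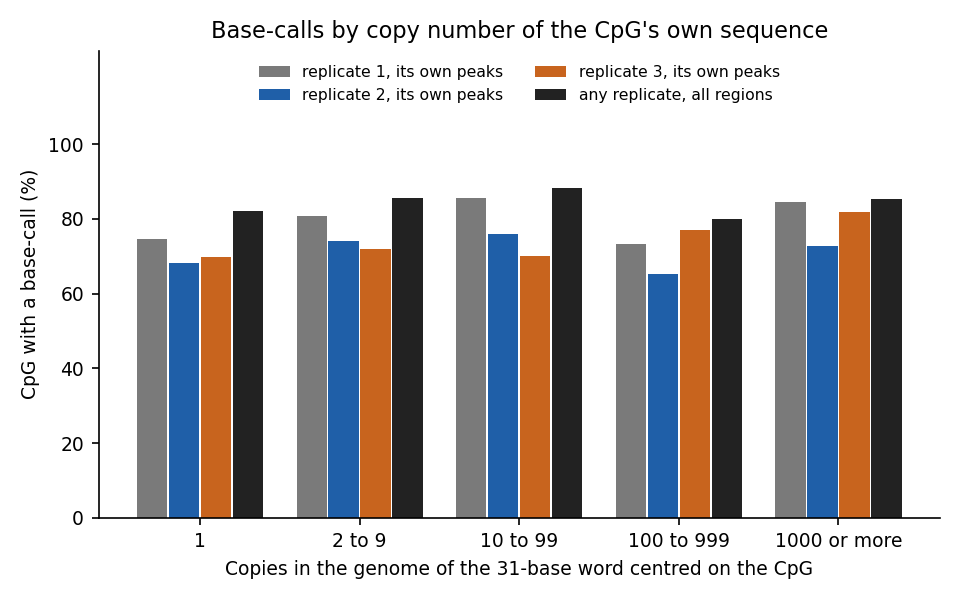
Percent of CpG with a base-call (y axis, bars from 0) against the number of copies in the genome of the 31-base word centred on the CpG (x axis), for each replicate in its own peaks and for all replicates over all regions. Over all regions the bars lie between 80.1% and 88.2%, with 82.1% at 1 copy and 85.4% at 1000 or more copies.

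Whole regions were then counted by their repeated words. Among 147 CpG-bearing regions in which at least 50% of the words had 10 or more copies, 2 had no base-call (1.36%, interval 0.165 to 4.83). Among 1415 regions with any word of 1000 or more copies the count was 46 (3.25%), and among 9924 regions without a word of 10 or more copies it was 396 (3.99%). The share of bases in words with 10 or more copies averaged 0% in the 4 regions of replicate 1 without base-calls against 5.16% in the others. It was 2.42% against 2.73% in replicate 2 (n = 303) and 1.46% against 2.83% in replicate 3 (n = 154). The mean difference was -2.28 percentage points (exact sign-flip permutation test, p = 0.25), and -0.838 without replicate 1. Of the 459 regions, 396 (86.3%) held no word with 10 or more copies. The most repeated region, printed earlier from chromosome 15, had 8 CpG, a fold enrichment of 2.85 in replicate 2 and words with a median of 998 copies. Few of the regions resembled each other, with 16 of the 459 in a pair of at least 80% identity over at least 100 bases. No such count is given here for the other regions.

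Tandem repeats, which are short units of up to 6 bases repeated in a row over at least 12 bases, gave a different result at the top of the fold enrichment scale. The thresholds used here, 30% of bases in tandem repeats and a fold enrichment of 6, were chosen after the values were seen, so the counts are a description. Tandem repeats covered at least 30% of bases in 48 CpG-bearing regions, and 7 of these had no base-call (14.6%, interval 6.07 to 27.8). Those 7 were 1.53% of the 459 regions, against 0.353% of the others. A fold enrichment of 6 or more was reached by 152 CpG-bearing regions. All 4 of them without a base-call were among the 11 with at least 30% tandem repeats, and none was among the 141 with less (interval up to 2.58%). That split depends on the threshold, because the next highest value without a base-call was 5.92, in replicate 1, in a region with 11 CpG, about 5.27 reads at the summit and 4.41% of its bases in tandem repeats. Across all 459 regions, tandem repeat content was close to that of the others, with a median of 0% in both.

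The strongest region without a base-call was intergenic, at chr18:32832542-32833630. It had a fold enrichment of 9.14 in replicate 2 and 11.01 in replicate 3, with about 8.55 and 10.4 reads at the summits, and no peak in replicate 1. It held 5 CpG in 1089 bp, of which the nearest lay 134 bp from the summit, and 38.3% of its bases were in tandem repeats. The D030025P21Rik region (chr12:84930656-84931224) reached 9.17 in replicate 3 only, with 3 CpG, the nearest 49 bp from the summit, and 47.5% tandem repeats. The Spef2 region (chr15:9737902-9738292) reached 7.10 in replicate 2 only, with 3 CpG, a GC content of 77.2% and 58.1% tandem repeats. These 3 regions joined a high fold enrichment to few CpG. The Pdzrn4 region (chr15:92337694-92337997) differed from them. It reached 6.24 in replicate 2 only and held 41 CpG in 304 bp, all inside tandem repeats, with 91.1% of its bases repeated. The remaining 3 tandem repeat regions were weak, with a fold enrichment of 2.90 in Bckdha, a subunit of the branched-chain keto acid dehydrogenase, 2.89 in Mical3, an actin-oxidising enzyme, and 2.87 in the gene model Gm53065. Other tandem repeat regions of high fold enrichment did have base-calls. In an intron of Zfhx3, a homeobox transcription factor gene, at chr8:109665751-109666259, 54 of 58 CpG were called, with a fold enrichment of 4.01, 7.55 and 18.2 in replicates 1 to 3. At chr17:4676278-4676915 in 4930517M08Rik, 2 of 3 CpG were called, with values of 7.79, 12.8 and 21.3.

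**Figure D4:**
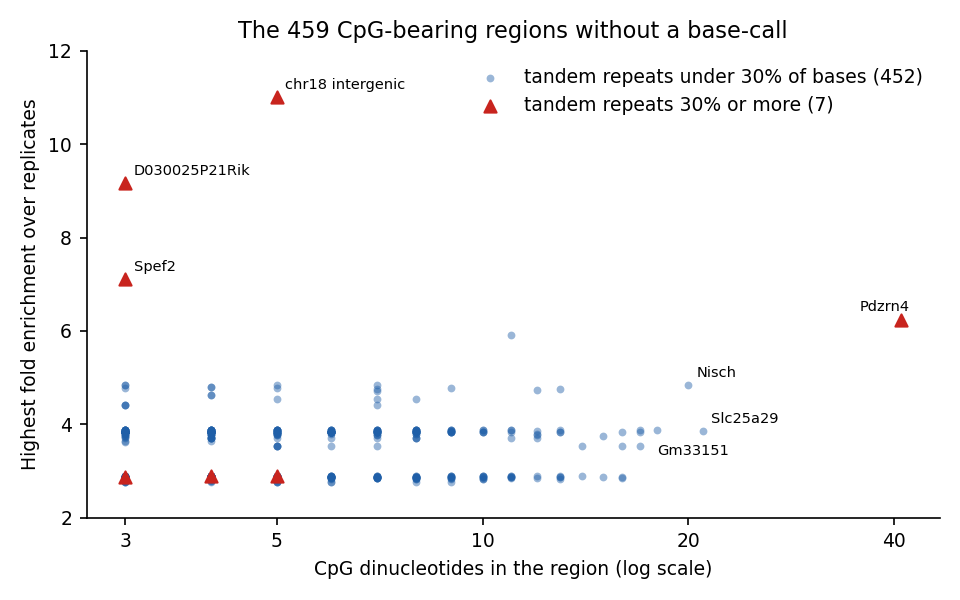
Highest fold enrichment over the replicates (y axis) against the number of CpG (x axis, log scale) for the 459 regions without a base-call, 1 point each. Red triangles mark the 7 regions with at least 30% of bases in tandem repeats; 4 of them lie above 6, from Pdzrn4 at 6.24 to the chromosome 18 region at 11.01, and the blue points lie under 6, the highest at 5.92.

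Other regions named for their fold enrichment or number of CpG carried sequence found mostly once in the genome. A fold enrichment of 4.84 in replicate 3, which is about 4 reads, was shared by regions in Ttc7b, part of a phosphatidylinositol kinase complex (3 CpG), Nisch, which encodes the integrin-binding protein nischarin (20 CpG), Msra, a methionine sulfoxide reductase (7 CpG), Zfp148, a zinc finger transcription factor gene (3 CpG), and Pcbp3, an RNA-binding protein gene (5 CpG). Of the 54 regions with 10 or more CpG, 29 lay in introns, 16 in exons (29.6%, against 26.8% of the other regions with as many CpG), 6 between genes and 3 in promoters. The exonic ones with the most CpG included Slc25a29, a mitochondrial amino acid carrier, with 21 CpG and a fold enrichment of 3.85 in replicate 3, and Nrbp2, a pseudokinase gene, with 17 CpG and 3.87 in replicate 3. In replicate 2 they included Cit, the citron kinase of cell division, with 17 CpG and 3.83, Csrp2, a LIM domain protein gene, with 17 CpG and 3.53, and Dvl1, a transducer of Wnt signals, with 16 CpG and 2.87. Gm33151, an lncRNA gene, held 18 CpG in an intronic region at 3.87 in replicate 3. Each of the regions named in this group rested on about 2 to 4 reads.

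Distance from the summit moved with base-calls as well. In single-replicate regions, 75.6% of CpG within 50 bp of the summit had a base-call in replicate 2 and 64.6% of those over 150 bp away, and the corresponding shares were 79.9% and 69.6% in replicate 3 and 90.6% and 72.2% in replicate 1. The nearest CpG lay a median of 21 bp from the summit in regions without a base-call and 16 bp in the others, and was farther in all 3 replicates (17.5 against 12, 21 against 16, and 21 against 15 bp). That distance moves with the number of CpG, and no test of it is used. No CpG lay within 100 bp of the summit in 28 of the 459 regions (6.10%) and in 331 of the others (2.85%). Taken over single CpG, the order was the other way, since 28.8% of the CpG in single-replicate regions without a base-call lay within 50 bp of the summit, against 24.6% in the others, and 27.5% lay over 150 bp away, against 37.5%. Regions without a base-call were also shorter, with a mean of 341 bp over all 459 against 449 bp. The part of length in this order was not tested.

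**Figure D5:**
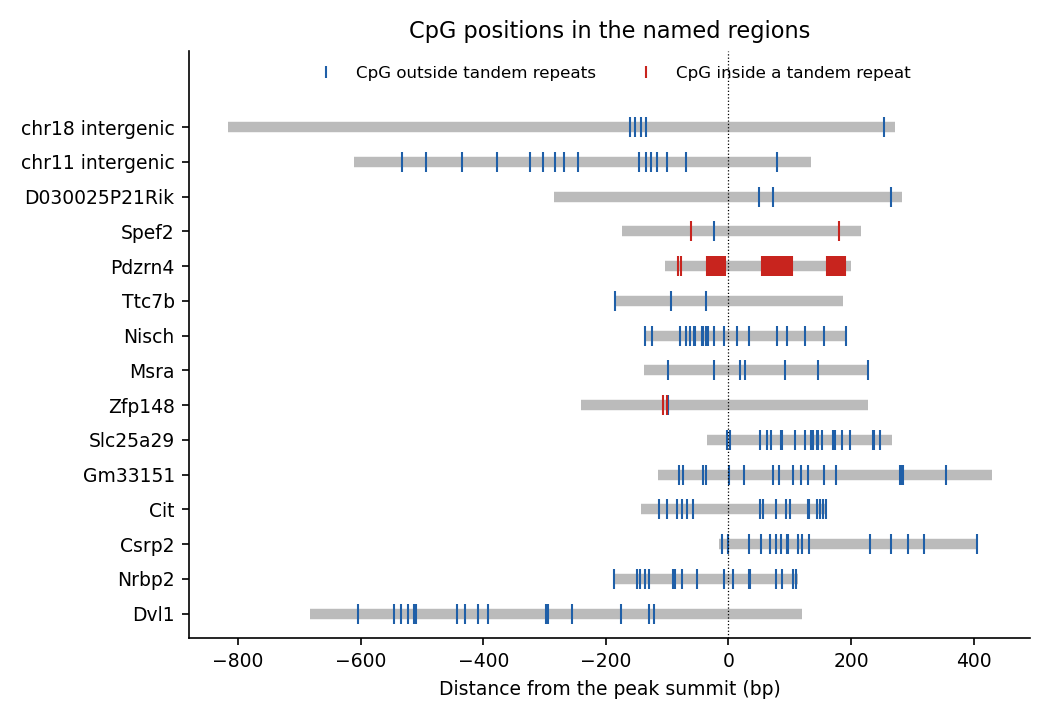
Positions of every CpG (ticks) relative to the peak summit (x axis, bp; dotted line at 0) in the regions named in the text for their fold enrichment, their number of CpG or a peak in 2 replicates, with the extent of each region in grey. Blue ticks lie outside and red ticks inside tandem repeats; the CpG of the chromosome 18 region lie at least 134 bp from the summit, while those of Pdzrn4 fall mostly in dense red blocks.

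Gene context was close to that of the other regions. Of the 459, 309 (67.3%) lay mainly in introns, 76 (16.6%) in exons, 28 (6.10%) in promoters, taken as 1 kb upstream of a gene, and 46 (10.0%) between genes. The other CpG-bearing regions had 68.5%, 17.4%, 5.53% and 8.57%. The share in introns was 75% against 61.3% in replicate 1, 66.7% against 68.7% in replicate 2 and 67.5% against 67.2% in replicate 3, so the differences had no common direction (exact sign-flip permutation test, p = 0.75). The exon, promoter and intergenic shares also differed in opposite directions in replicates 2 and 3. Regions with fewer than 3 CpG stood farther away, with 6.55% in exons and 16.5% between genes. Of the 405 regions in genes, the first gene was protein-coding in 353 and an lncRNA in 52, against 9343 and 1131 of 10527 for the other CpG-bearing regions. Host genes on the + strand made up 55.3% of these (224 of 405, interval 50.3 to 60.2) and 49.3% of the genes of the other regions. The share was 57.0% in replicate 2 (258 regions), 53.1% in replicate 3 (143 regions) and 1 of 4 in replicate 1, and the difference was not tested.

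The regions were spread over 436 genes, of which 29 held at least 2 and 4 held 3. Elmo1, which acts with DOCK proteins to activate Rac, held 3 among 8 CpG-bearing regions, of which 2 had about 2 reads and 1 had 3. Mical3 held 3 of 26, and Nedd4l, an E3 ubiquitin ligase gene, 3 of 28, with fold enrichments of 4.75, 2.87 and 4.79 in replicate 2. Fgfr2, a fibroblast growth factor receptor gene, held 3 of 47 over a gene model that spans 2962 kb in the annotation used, and each of these 3 regions also lay in another gene (Cpxm2, Chst15 or Fam53b). Genes with 2 such regions included Evl, an actin regulator, with 2 of 3, Atp2b2, a plasma membrane calcium pump of Purkinje cells, with 2 of 11, and Tcf4, a neuronal transcription factor gene, with 2 of 32.

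Regions without a base-call were also counted in 5 gene lists. Among genes that mark cerebellar neurons, 1 of 37 CpG-bearing regions had no base-call (2.70%), in Rora, a nuclear receptor gene of Purkinje cells, where it was 1 of 19. Glial genes had 0 of 6 and DNA modification genes 0 of 10. Synaptic adhesion genes had 2 of 82 (2.44%), in Ntm and Tenm3. Ion channel genes had 6 of 258 (2.33%, interval 0.858 to 4.99). Those were the L-type calcium channel genes Cacna1c and Cacna1d, the auxiliary calcium channel subunit Cacna2d2, the inward rectifier potassium channel genes Kcnj6 and Kcnj9, and the sodium channel gene Scn8a. Their fold enrichments lay between 2.83 in Cacna1d and 3.87 in Kcnj6, and each had a peak in 1 replicate. The intervals of all 5 lists include the 3.80% found over all CpG-bearing regions.

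Regions without a base-call were rarely shared. A peak in 1 replicate only was found for 457 of 459, in 2 replicates for 2 (0.436%) and in 3 for none, against 723 and 51 of the other 11620 regions (6.66% in 2 or more). A region with peaks in several replicates has had more reads in which a CpG could be called, so sharing is not independent of how the regions were chosen and was not tested. The 2 shared regions were the one on chromosome 18 and the intergenic one at chr11:114228117-114228863, which had 16 CpG and a fold enrichment of 3.83 in replicate 2 and 2.90 in replicate 3. Counting only the replicates that had the peak, 845 regions (7.00%) had no base-call of their own, and 386 of these had one in another replicate.

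At the limits of the rule, fold enrichment was as follows. Regions with 3 CpG and no base-call had a median highest fold enrichment of 3.77, and 77 of 674 regions with 2 CpG had no base-call, with a median of 2.90. The 316 CpG-bearing regions with a single called CpG had a median of 4 CpG and of 3.76. Their calls were 5hmC 7 of 29 for replicate 1 (24.1%), 62 of 196 for replicate 2 (31.6%) and 37 of 110 for replicate 3 (33.6%). In the 608 regions with 2 called CpG the 5hmC shares were 38.6%, 39.6% and 39.5%, and in those with 3 or more they were 16.5%, 28.3% and 28.3%. Calls of each replicate were counted over all regions of a class, including those without a peak in that replicate. Replicate 1 had a peak in only 457 of the other 11620 CpG-bearing regions, so its values are not shares within its own peaks. The state of the CpG in the 459 regions themselves is unknown, since no base-call was listed for them.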

How the data were processed

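The authors base-called and aligned MinION reads to mm39 (GRCm39) and called narrow peaks per replicate with MACS2 against untreated DNA. The deposited peak lists hold a fold enrichment (a ratio), −log10 p- and q-values and a display score. The deposited base-call files, made by the authors with modkit at CpG sites, hold counts of 5hmC, 5mC and unmodified calls and percent values, and masked repeats were left out according to the methods. Replicates follow the labels. Regions, CpG (counted where the C lies inside), words and tandem repeats were computed from GRCm39 and GENCODE M39 with blastn 2.17.0, numba 0.67.0, scipy 1.17.1, pandas 2.3.3 and numpy 2.4.6 under Python 3.11.15, and tested on simulated data. The planned share of masked bases could not be computed, as the reference carries no masking. It was replaced by word copies, chosen after seeing the data, and by 21-base words within 50 bases. Each region took the feature with the largest overlap.

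Reads at the summit were estimated from the value of a read (0.944, 0.957 and 0.968 in replicates 1 to 3). They assume the same background for every peak, and 54.5%, 65.5% and 67.9% of peaks gave a whole number within 0.02 reads. Replicates were compared by two-sided exact sign-flip permutation over 3 differences of medians or shares (8 flips). Regions named were those with peaks in 2 replicates, the 8 highest in fold enrichment with 1 replicate (1 of which is given by its values only), the 8 with most CpG, those in genes holding at least 3, and those in listed genes. Other names, among them Zfhx3, 4930517M08Rik, Bckdha, Gm53065, Pcbp3, Evl, Atp2b2 and Tcf4, were chosen after their values were seen. Regions and gene lists were chosen with earlier results of these data known. Alternatives covered the CpG minimum, merging, peak thresholds, feature assignment and leaving out each replicate.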

Additional observations from a re-analysis of the deposited data

How the results depend on the processing

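The number of regions without a base-call, 459, was 629 with a minimum of 1 CpG, 259 with 5 and 54 with 10. It was 845 when only the replicates with the peak were read, 28 at a fold enrichment of at least 4 and 244 at q of at most 0.01. Leaving out each replicate gave 250 to 622 regions, the lowest without replicate 2. Merging within 100 bp, not merging, adding chromosomes X and Y, requiring both bases of a CpG inside the region (added after seeing the data) and requiring a valid call gave 457 to 467. The share in introns was 74.1% when any overlap counted and 64.3% to 68.8% otherwise, over the other feature assignments and with each replicate left out. The share with a peak in 2 or more replicates was 3.57% of the 28 regions at a fold enrichment of at least 4, and 0 to 0.643% with each replicate left out. The differences in fold enrichment (-0.381 to -0.065), in base-calls by copy number (3.40 to 7.58 percentage points) and in repeated words kept the direction of their means under every alternative run, where exact permutation allows no p under 0.25 with 3 replicates or under 0.5 with 2. Without replicate 3, the 2 remaining replicates did not share a direction of the fold enrichment difference (mean -0.065, exact permutation p = 1). In single-replicate regions of at most 3 reads the copy number difference turned in replicate 2, and its mean of 7.45 leaned on 30 CpG of replicate 1. The alternatives on masked bases were not run, for want of a masked reference. Regions were compared within each replicate, and with 1 group no replicate block between groups could be fitted. A median of 1 call per CpG limits how far a missing base-call can be read.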

Other observations

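Many of the regions with fewer than 3 CpG and a high fold enrichment were tandem repeats. Of 1206 such regions, 59 (4.89%) had at least 30% of bases in tandem repeats. A fold enrichment of 6 or more was reached by 27, of which 18 had such tandem repeats and 23 had no base-call. Among CpG-bearing regions, 11 of the 152 at that fold enrichment had such tandem repeats. Over all 1206 regions with fewer than 3 CpG, 325 (26.9%) had no base-call, including 155 that hold no CpG. These thresholds were chosen after the values were seen, and no test was made.

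On chromosome X, 2 of 35 CpG-bearing regions had no base-call, and on chromosome Y 0 of 8. The mouse was female, and how peaks came to be placed on chromosome Y was not tested. Among chromosomes 1 to 19, where the share was 3.80% in all, it ran from 1.64% on chromosome 19 (6 of 365, interval 0.606 to 3.54) and 1.79% on chromosome 3 (9 of 504, interval 0.820 to 3.36) to 4.74% on chromosome 13 (19 of 401, interval 2.88 to 7.30).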
